A study of Mus musculus with 6 samples.

Results

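The Pax family of paired-box transcription factors was followed in mouse embryonic fibroblasts (MEFs), connective tissue cells grown out of embryos. The members were the 9 genes Pax1 to Pax9. Each was read from the probe sets that the platform annotation pairs with 1 gene, taking the probe set with the highest mean over the 6 arrays where there was more than 1. All 9 had exactly 1 such probe set, and they are 9 of the 22180 genes tested. Pax7-/- MEFs (knockout, KO), described in the series title as lacking functional Pax7, were set against Pax7+/+ MEFs (wild type, WT). Each genotype had 3 arrays, numbered in the titles as biological replicates 1 to 3, and all cells were of strain F1 (C57Bl6N x 129Sv), grown to confluence in serum-containing medium without a further treatment. The labels name neither the embryos nor their age, neither the deleted part of Pax7 nor any pooling of embryos, so tests measure only the spread between these samples. Values are log2 signals per probe set, and differences are KO minus WT.

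Pax proteins bind DNA through the paired domain, and the paralogues fall into 4 subgroups by what else they carry. Pax1 and Pax9 lack a homeodomain, Pax2, Pax5 and Pax8 keep part of one, and Pax3 and Pax7, like Pax4 and Pax6, have a complete one. They act early in organ formation: Pax3 and Pax7 in muscle progenitors, dorsal neural tube and neural crest, Pax1 and Pax9 in the sclerotome that forms vertebrae, Pax2 and Pax8 in the kidney, Pax8 in the thyroid, Pax5 in B cells, Pax4 in endocrine pancreas and Pax6 in the eye, brain and pancreas. The comparison asks which paralogues give a signal above background in these cells, and whether any differs between Pax7-/- and Pax7+/+ cells.

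The labels of the samples name the cell type as ESCs (embryonic stem cells), while titles and design name fibroblasts. Of 13 fibroblast markers, 12 lay above background on all 6 arrays, with vimentin, Vim, averaging 12.1 in KO cells and 12.1 in WT cells. Of 12 pluripotency markers 2 did, Pou5f1 and Lin28a, and of all genes 37.9% did. Sox2 and Zfp42 lay at or below background on every array. The arrays of replicate 3 stood apart from the other 4 in both genotypes: the Pearson correlation over genes was 0.992 between KO replicate 3 and WT replicate 3, and 0.814 to 0.844 between a replicate 3 array and any other array. The cause of this divide was not tested, and results are therefore given by replicate number.

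The table holds no detection calls. Background was set on each array from 1390 genes of olfactory and vomeronasal receptors, which are expressed in sensory neurons, as the 95th percentile of their signals. It lay at 5.43, 5.34 and 4.63 on KO replicates 1, 2 and 3, and at 5.44, 5.34 and 4.65 on WT replicates 1, 2 and 3. By this level, 5 of the 9 Pax genes were above background on all 6 arrays (Pax1, Pax3, Pax4, Pax7 and Pax9), against 37.9% of all genes. Pax5 was above it on 5 arrays, Pax6 on 1, and Pax2 and Pax8 on 0 arrays, as were 35% of all genes. At the stricter 99th percentile of the same receptor genes, 0 of the 9 Pax genes were above the level on any array, while 12.9% of all genes were above it on all 6 arrays and 44.2% on at least 1. The 2 probe sets that name a Pax gene together with another gene, which are no members, exceeded this level on some arrays: that shared by Pax1 on replicates 1 and 2 of both genotypes, and that shared by Pax6 and Elp4 on replicate 3 of both. The Pax gene nearest to the stricter level lay 0.40, 0.54 and 0.22 below it on KO replicates 1, 2 and 3, and 0.39, 0.46 and 0.11 below it on WT replicates 1, 2 and 3. The count of 5 depended on the genes chosen as background: it was 7 at the 90th percentile, 4 with olfactory receptors alone (without Pax9), and 0 against 89 taste receptor and keratin-associated genes. The share of all genes above these other levels was not computed, so these counts cannot be set against genes in general. In bulk RNA, few cells with much of a transcript and many cells with little of it cannot be told apart.

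**Figure D1:**
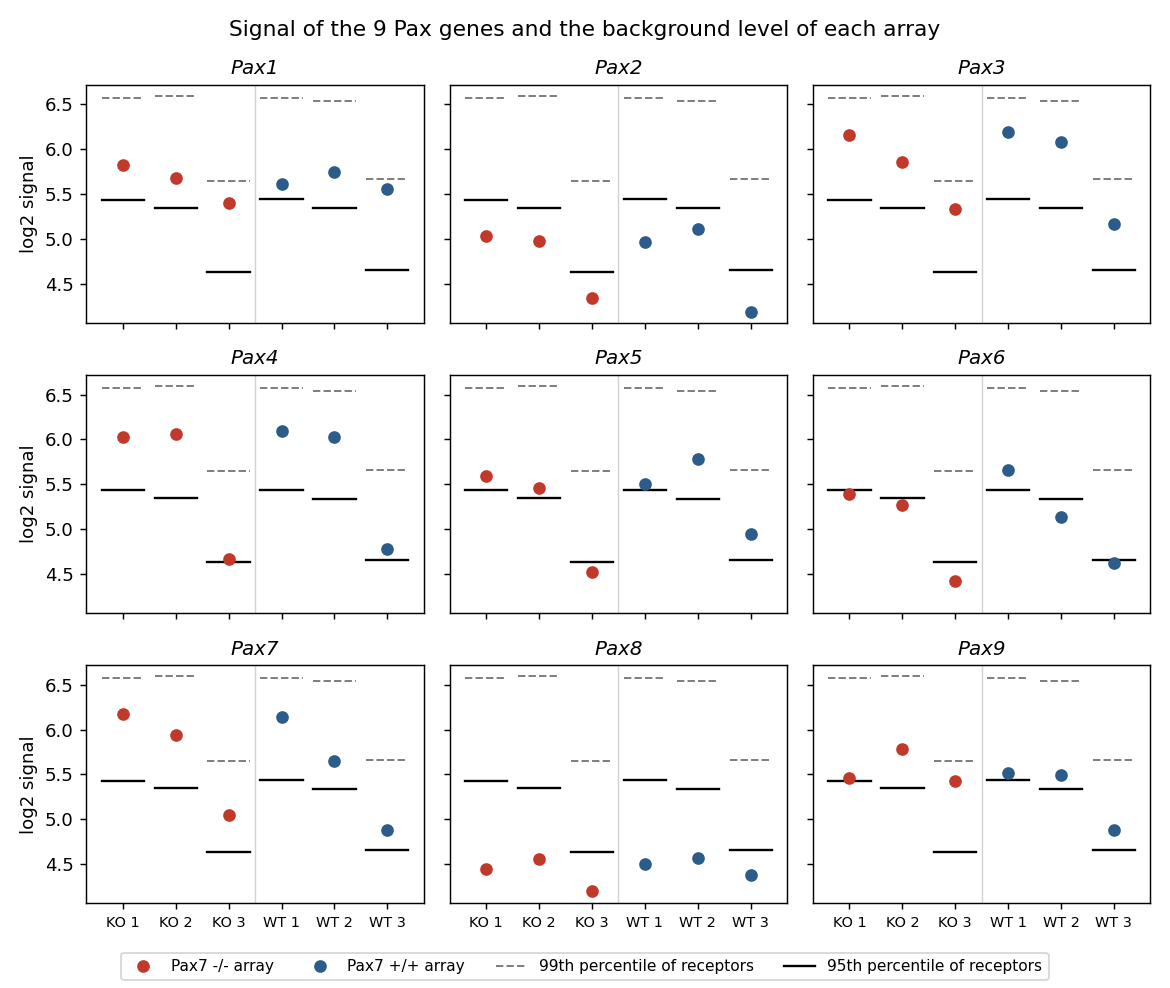
Log2 signal (vertical axis) of each Pax gene on the 3 Pax7-/- (KO) and 3 Pax7+/+ (WT) arrays, 1 point per array, with the 95th (solid) and 99th (dashed) percentile of receptor genes on that array. Pax1, Pax3, Pax4, Pax7 and Pax9 lie between both levels on every array, Pax2 and Pax8 lie below the lower level on every array, and both levels drop on replicate 3.

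Pax7, the disrupted gene, which marks muscle satellite cells and dorsal neural progenitors, gave log2 signals of 6.17, 5.95 and 5.05 in KO replicates 1, 2 and 3, against 6.14, 5.65 and 4.88 in WT replicates 1, 2 and 3. In each pair of equal number the KO array was the higher, but the genotypes overlapped. Above its array's background the signal stood at 0.74, 0.60 and 0.42 on the KO arrays, against 0.70, 0.31 and 0.23 on the WT arrays. The pair differences were 0.03, 0.30 and 0.17, with a mean of 0.16 (SE 0.10 with the replicate number as a block and 0.44 without; limma, adjusted p = 0.804 and 1.00). Without the block the limma adjusted p was 1.00 for each of the 9 Pax genes as well, and the values given for the others come from the fit with it. The 95% interval for Pax7 with the block ran from -0.05 to 0.38, and no KO array had a lower Pax7 signal than the WT array of its number. No label states a pairing of equal numbers, and KO replicate 2 (5.95) lay below WT replicate 1 (6.14). The position of its probe set, 17431910, against the deleted part was not known here, so that this signal cannot serve as a check of the genotype. Whether a signal this near background comes from the transcript was not tested.

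Pax3, the closest relative of Pax7 and a regulator of limb muscle precursors and melanocytes, gave 6.16, 5.86 and 5.34 in KO cells, against 6.19, 6.08 and 5.16 in WT cells. The genotypes overlapped and the pairs disagreed in sign, at -0.03, -0.23 and 0.17. Its mean difference was -0.03 (SE 0.10 with the block; limma, adjusted p = 0.986). Pax3 stayed 0.51 to 0.75 above background on all 6 arrays, with both its signal and the background level lower on replicate 3.

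Among Pax1 and Pax9, which pattern the sclerotome and pharyngeal pouches, Pax1 gave 5.83, 5.68 and 5.40 in KO cells, against 5.61, 5.75 and 5.55 in WT cells. Its mean difference was -0.00 (95% interval with the block -0.23 to 0.23), and the KO values enclosed all 3 WT values. Pax9, which is also required for teeth and palate, gave 5.46, 5.78 and 5.43 in KO cells, against 5.51, 5.50 and 4.88 in WT cells. The pairs disagreed in sign, at -0.05, 0.28 and 0.55, and the genotypes overlapped. The mean difference of Pax9, 0.26, had the smallest p of the 9 genes in the fit with the block and did not pass over all genes (SE 0.12; limma, adjusted p = 0.750; 95% interval -0.01 to 0.53). Without replicate 3 of both genotypes it was 0.12, without replicate 1 it was 0.41, and without the array of WT replicate 3 alone it was 0.05. On KO replicate 1 and WT replicate 1 Pax9 lay only 0.03 and 0.07 above background.

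Of Pax4 and Pax6, which act in opposing and shared steps of islet cell formation, Pax4 gave 6.02, 6.06 and 4.66 in KO cells, against 6.09, 6.02 and 4.78 in WT cells. On replicate 3 of both genotypes the signal was lower and only 0.03 (KO) and 0.13 (WT) above background. The difference of Pax4 was -0.05 (SE 0.09 with the block; limma, adjusted p = 0.953). Pax6, which is needed for the eye, gave 5.39, 5.27 and 4.42 in KO cells, all at or below background, against 5.66, 5.13 and 4.62 in WT cells, of which the first was above it. Relative to background the mean was -0.11 in KO cells and -0.0082 in WT cells, so no size of a change is read from Pax6 (limma with the block, adjusted p = 0.898), whose pairs disagreed in sign.

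Pax2, Pax5 and Pax8 form the subgroup with a partial homeodomain. Pax2, a kidney and optic stalk gene, gave 5.03, 4.98 and 4.34 in KO cells, against 4.96, 5.11 and 4.18 in WT cells, and was 0.23 to 0.48 below background throughout. Pax8, the thyroid factor, gave 4.45, 4.55 and 4.20 in KO cells, against 4.50, 4.57 and 4.38 in WT cells, and was 0.27 to 0.98 below background. No size of a change is read from Pax2 or Pax8 because both groups lie below background. The Pax8 signal was lower on the KO array in all 3 pairs of equal number, but no direction is read from it at this level. Pax5, which commits lymphoid cells to the B lineage, gave 5.59, 5.46 and 4.53 in KO cells, against 5.50, 5.79 and 4.94 in WT cells. Its difference was -0.22 (SE 0.11 with the block; limma, adjusted p = 0.791), with pairs of 0.09, -0.33 and -0.41, and on KO replicate 3 it was below background.

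Over the family, 0 of 9 Pax genes passed an adjusted p of 0.05 in limma, without the block (0% of all genes called) or with it (0.0766% called), and 0 of 9 had an unadjusted p under 0.05 in either fit (0.0676% and 6.73% of all genes). In 0 of 9 did the genotypes separate without overlap, against 1.41% of all genes. The 3 pairs of equal number had a common sign in 2 of 9, against 27.5% of all genes (13.8% higher and 13.8% lower). These were Pax7 as higher and Pax8, which lay below background, as lower. The median difference was -0.03 over the Pax genes, -0.01 over the receptor genes and -0.00 over all genes. The median size of a difference, regardless of sign, was 0.08, 0.06 and 0.08 in the same order. With the block, the 95% intervals of the differences lay between -0.47 (Pax5) and 0.53 (Pax9). Without it the widest was that of Pax4, from -1.40 to 1.29. Missing the threshold does not show that the genotypes are alike.

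**Figure D2:**
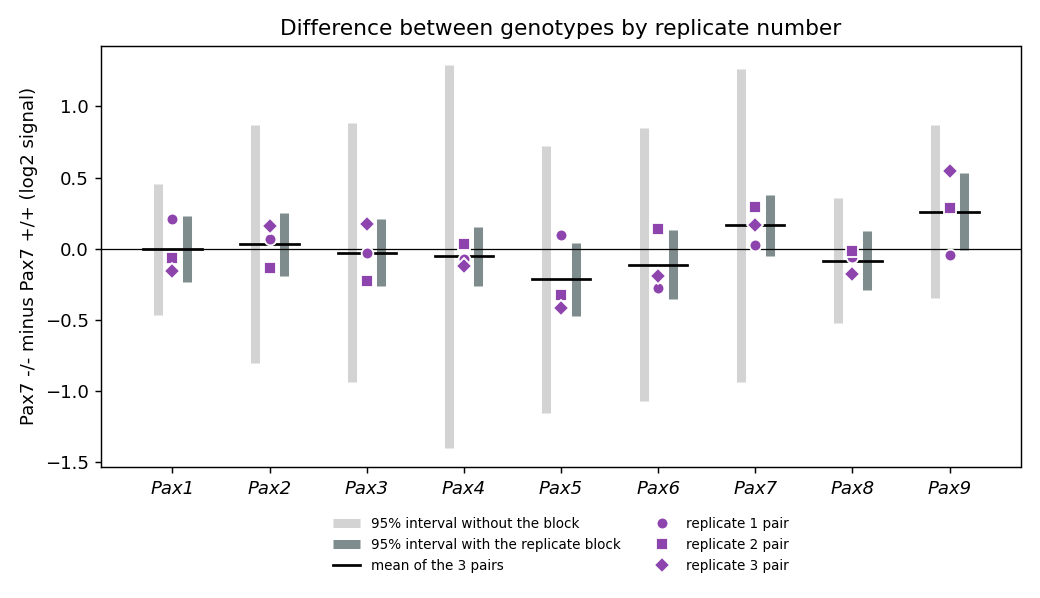
KO minus WT difference in log2 signal (vertical axis) for each Pax gene, with 1 symbol per pair of equal replicate number, a black line at the mean of the 3 pairs, and 95% intervals from limma without (light) and with (dark) the replicate block. Every interval includes 0, and the Pax9 mean of 0.26 and the Pax5 mean of -0.22 lie furthest from it.

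What the members shared was the replicate divide. All 9 Pax genes had a lower mean on replicate 3 than on replicates 1 and 2, against 54.3% of all genes and 86.2% of receptor genes. The shift was -1.33 for Pax4, -1.01 for Pax7, -0.82 for Pax3, -0.76 for Pax2, -0.84 for Pax6 and -0.85 for Pax5, beside -0.75 for the background level itself. It was smaller for Pax9 (-0.41), Pax1 (-0.24) and Pax8 (-0.23). In log2 signal as deposited, this shift was larger in size than the genotype difference in any pair for 8 of the 9 Pax genes, Pax9 being the exception. The share of all genes for which this holds was not computed, so it is not read as a trait of the family. Measured from the background of the same array, Pax1, Pax8 and Pax9 were thus higher on replicate 3, by 0.51, 0.52 and 0.34, and Pax4 and Pax7 were lower, by 0.58 and 0.26. On this scale the shift exceeded every pair difference for 3 of the 9, Pax1, Pax4 and Pax8, again without a share over all genes beside it.

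The 7 Pax genes with a matched start differ from the receptor genes that set the background in the median base composition there. The stretches shown belong to the disrupted gene (Pax7), to a member above background on every array (Pax9) and to one below it on every array (Pax8). They are the 100 bases before the annotated start, 5′ to 3′, from RefSeq on GRCm38.p6, with CpG dinucleotides in capitals.
Pax7, chr4:139832969-139833068, minus strand: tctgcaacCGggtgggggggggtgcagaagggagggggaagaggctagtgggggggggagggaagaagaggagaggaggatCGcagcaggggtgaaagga
Pax9, chr12:56695371-56695470, plus strand: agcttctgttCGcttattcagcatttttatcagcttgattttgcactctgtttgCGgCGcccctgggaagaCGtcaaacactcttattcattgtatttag
Pax8, chr2:24475600-24475699, minus strand: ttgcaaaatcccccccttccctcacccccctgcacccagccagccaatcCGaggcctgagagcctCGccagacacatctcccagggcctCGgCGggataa
These stretches hold 2, 4 and 4 CpGs. In windows of 300 bases around annotated starts, 10 windows of 7 matched Pax genes held 7 to 30 CpGs (median 16.5), against a median of 1 in 1270 receptor windows and 7 in all 32851 windows. The Pax7 window held 17, and 31.4% of all windows and 0.0787% of receptor windows held as many or more. The GC content had a median of 58.8% in Pax windows, 35.7% in receptor windows and 52.7% in all windows. Whether the array probes differ in base composition in the same way was not tested, and Pax3 and Pax4 had no entry in the table of starts.

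Genes with which Pax proteins work gave a wider span of signal. Of 11 measured homologues of the fly genes sine oculis, eyes absent and dachshund (Six2 to Six6, Eya1 to Eya4, Dach1 and Dach2), whose products act with Pax proteins in eye, kidney and muscle, 5 were above background on all 6 arrays, and 1 of them, the phosphatase and coactivator Eya1, was above the stricter level on all 6. Eya1 gave 7.17, 7.27 and 8.39 in KO cells, against 7.02, 7.06 and 8.30 in WT cells. Its difference was 0.15, and that of Eya2 was 0.23 (limma with the block, adjusted p = 0.809 and 0.785). None of the other 10 exceeded that stricter level on all 6 arrays. Over all genes, 37.9% were above background and 12.9% above the stricter level on all 6 arrays.

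Of 21 measured paired-class homeobox genes outside the family, 9 were above background on all 6 arrays, against 37.9% of all genes. The mesenchymal factors Prrx1 and Prrx2, 2 of the 21, exceeded the stricter level on all 6, against 12.9% of all genes. Prrx1 gave 9.003, 8.83 and 9.90 in KO cells, against 9.34, 9.42 and 10.2 in WT cells. It was lower in KO cells in all 3 pairs, with a mean of -0.42 that did not pass (limma with the block, adjusted p = 0.295). Pitx3, a lens and midbrain factor, was at 0.23. Among Groucho corepressors, which bind the octapeptide of several Pax proteins, and other Pax-binding proteins, 7 of 11 were above background on all arrays, with Tle3 at -0.12 and Paxbp1, which links Pax3 and Pax7 to histone methylation, at -0.11. Of 13 genes reported downstream of Pax3 or Pax7, 8 were above background on all arrays and 3 exceeded the stricter level on all 6. Msx2, a homeobox gene of neural crest and limb, was at 0.47 (0.20, 0.23 and 0.98 in the pairs) and Itm2a, a membrane protein of muscle and cartilage precursors, at -0.28 (limma with the block, adjusted p = 0.573 and 0.600). Myf5 and Lbx1, both downstream of Pax genes in muscle precursors, were at or below background on all 6 arrays.

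Markers of the tissues in which each Pax gene normally works were measured beside them. The counts stand beside 37.9% of all genes that were above background on all 6 arrays. For Pax3 and Pax7, 3 of 10 dorsal neural tube and neural crest markers and 3 of 10 myoblast markers were above background on all arrays; in the myoblast list these were Des, Acta1 and Cdh15, with Des at 0.31 and Acta1 at 0.27, both largest in the replicate 3 pair (0.73 and 0.70). In the neural crest list Ednrb, the endothelin receptor B, was at -0.28 (0.16, 0.04 and -1.04 in the pairs), and the winged-helix factor Foxd3 at 0.12. For Pax1 and Pax9, 5 of 11 sclerotome markers were above background on all arrays, with the forkhead genes Foxc1 at 0.27 and Foxc2 at 0.26, and 6 of 8 palate and tooth markers, with the growth factor Bmp4 at -0.37 and the LIM factor Lhx6 at 0.25.

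For Pax2 and Pax8, 4 of 10 nephric and 3 of 6 thyroid markers were above background on all arrays, against 37.9% of all genes. Osr1, a zinc finger gene of intermediate and lateral mesoderm, gave 8.15, 8.14 and 8.94 in KO cells, against 8.89, 8.67 and 9.52 in WT cells. Its difference of -0.62 did not pass in either fit (SE 0.09 with the block and 0.34 without, limma, adjusted p = 0.0650 and 0.999968). Ret, a receptor tyrosine kinase, was at 0.36 (0.04, 0.20 and 0.84 in the pairs), Foxe1 at -0.14 and thyroglobulin, Tg, at 0.10. For Pax5, 1 of 11 B cell markers, the surrogate light chain gene Vpreb2, was above background on all arrays (-0.01). At or below it on every array were 9 of 11, against 35% of all genes. For Pax4 and Pax6, 3 of 12 islet markers (Mafa at 0.09, Ppy at 0.04) and 4 of 11 eye and forebrain markers (Six3 at 0.21, Cryaa at 0.12) were above it on all arrays. The lens crystallin Cryaa and the stem cell factor Lin28a thus met the same criterion as the 5 Pax genes. Fibroblast markers exceeded the stricter level on all 6 arrays in 11 of 13 cases, against 0 of 9 Pax genes and 12.9% of all genes. In the lists of other tissues 2 of 10 myoblast, 2 of 11 eye and forebrain, 1 of 11 sclerotome, 1 of 8 palate and tooth and 1 of 10 nephric markers did so. None did among the 12 islet, 12 pluripotency, 11 B cell, 10 neural crest and 6 thyroid markers.

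**Figure D3:**
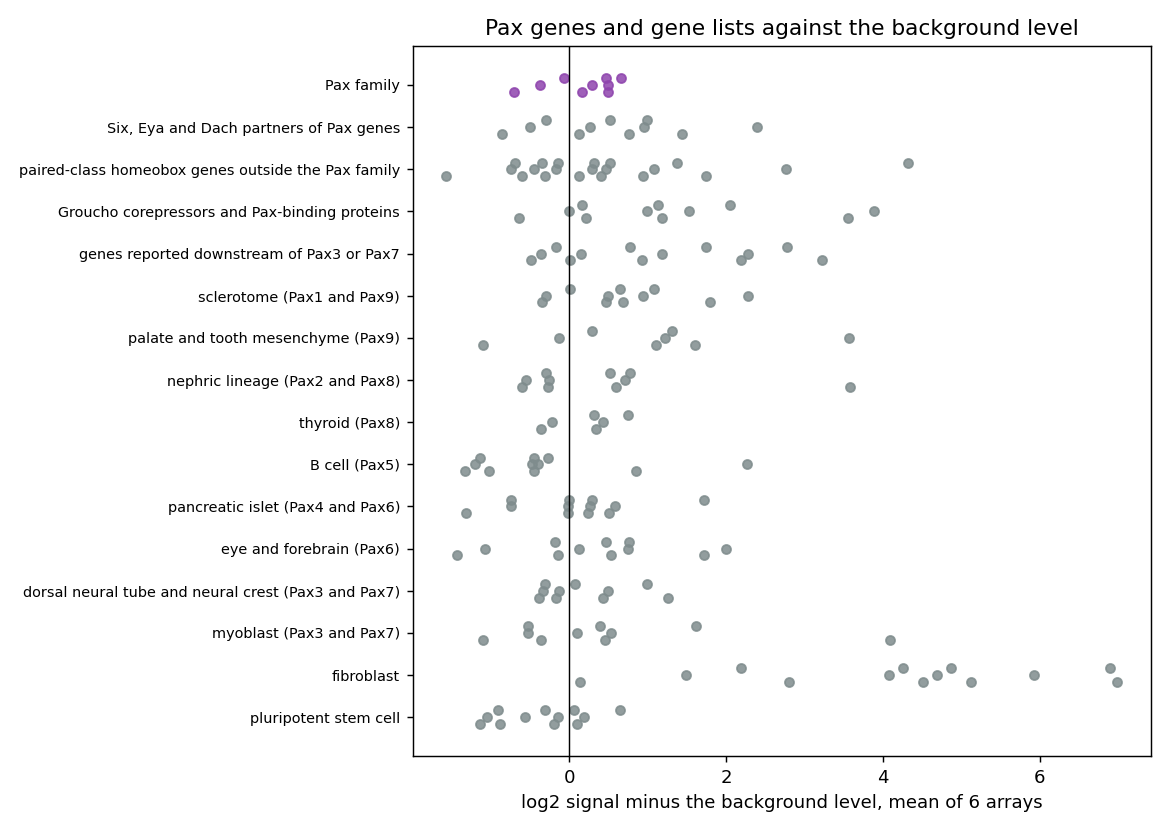
Log2 signal minus the background level of the same array, averaged over 6 arrays (horizontal axis), with 1 point per gene, for the Pax family (top row) and 15 gene lists. The Pax genes lie between -0.70 and 0.66, while fibroblast markers reach 6.98.

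None of the 160 measured list members passed in limma without or with the block, beside 0% and 0.0766% of all genes. Without the block their smallest adjusted p in limma was 0.999968. An unadjusted p under 0.05 was seen for 1 without the block, beside 0.0676% of all genes, and for 18 with it. Those 18 are 11.2% of the members, against 6.73% of all genes. The medians of the lists lay between -0.12 (fibroblast markers) and 0.08 (myoblast markers), beside -0.00 over all genes. Of the fibroblast markers, 6 of 13 were lower and 2 higher in KO cells in all 3 pairs, beside 13.8% of all genes in each direction, with the collagen chains Col6a1 at -0.43 and Col3a1 at -0.40 (limma with the block, adjusted p = 0.214 and 0.432). Lum, a fibroblast marker above background on only 2 arrays, had the largest difference of the list, -1.16.

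The genes whose 6 signals followed a Pax gene most closely were found by Pearson correlation over the 6 arrays among 7871 named genes above background on all of them. For Pax7 these were Mxd1 (r = 0.997), Sla2 (0.994) and Ppp1r14d (0.993), and for Pax3 Cfap410 (0.997), Tnfaip8l2 (0.997) and Cldn3 (0.996). For Pax4 they were Krtap17-1, Ccdc106 and Krt8 (all 1.00), for Pax1 Btbd6 (0.987), Hdhd5 (0.971) and Cobl (0.971), and for Pax9 Pheta1 (0.986), Vegfc (0.986) and Heca (0.968). These values share the divide between replicate 3 and the other replicates: 987 genes correlated above 0.9 with Pax7, 1147 with Pax3 and 1389 with Pax4, whose signals dropped on replicate 3. For Pax1 and Pax9, with smaller drops, 92 and 31 genes did so.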

How the data were processed

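RNA of 3 Pax7-/- and 3 Pax7+/+ MEF samples was hybridised to Affymetrix arrays. The table deposited by the authors gives 1 log2 signal for each probe set and array. Partek and RMA are named, without versions, per the submitters' processing notes. RMA corrects background and is usually run to normalize arrays together, and weak probe sets keep a signal above 0. The deposited arrays did not share 1 spread. The interquartile range over genes was 2.98 and 3.02 on replicate 3 of KO and WT, against 1.61 to 1.69 on replicates 1 and 2. The medians were 5.01 and 5.02, against 5.29 to 5.31. Whether all 6 arrays were normalized together was not tested. The genome build was not known here, and log2 was inferred from the values and from RMA. Of 41345 probe sets, the platform annotation gave 1 gene for 23521, several for 1814, and did not list 16010; only the first were used, with the highest mean kept where a gene had several (1082 genes).

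KO was compared with WT over 22180 genes with limma 3.58.1 in R 4.3.3 (lmFit, eBayes, two-sided, Benjamini-Hochberg), genotype as the only term, and with the replicate number as a block. Over genes, deviations from the genotype mean correlated between equal-numbered arrays (r = 0.920, 0.895 and 0.973 for replicates 1, 2 and 3). With 3 arrays per genotype, the divide of replicate 3 alone makes all 3 values high. They therefore cannot show a pairing of replicates 1 or 2. KO replicate 1 correlated at 0.990 with WT replicate 1 and 0.989 with WT replicate 2, and KO replicate 2 at 0.988 and 0.989. No label states a pairing. The fit was run on simulated data, with a requirement only on the mean size of added differences. How many changed genes either fit finds is not given here. For arrays, their number limits the precision. Named were the 9 Pax genes, per list the 2 members above background on all arrays with the smallest p with the block, and the 3 genes most like a Pax gene; other list members were named after their values were seen. The members, lists and background level were chosen with earlier results of these data known. CpG counts were made on RefSeq start windows of 250 bases before to 50 after a start. Other settings tried are given in the closing section.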

Additional observations from a re-analysis of the deposited data

How the results depend on the processing

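None of the 9 Pax genes passed the threshold under any of the 16 to 18 other settings each could be given (smallest adjusted p 0.185, Pax7 with array weights). The replicate block changed no call among them. The filter on low values kept 6 of the 9, without Pax2, Pax6 and Pax8, and 11037 of all 22180 genes. Leaving out 1 array without a block, which gives the genotypes unequal shares of replicate 3, gave -0.10 to 0.11 for Pax1, -0.25 to 0.25 for Pax2, -0.35 to 0.20 for Pax3, -0.48 to 0.41 for Pax4, -0.45 to 0.12 for Pax5, -0.37 to 0.19 for Pax6, -0.17 to 0.50 for Pax7, -0.16 to 0.016 for Pax8 and 0.05 to 0.37 for Pax9. With the replicate block and without 1 replicate number, the ranges were -0.11 to 0.072 for Pax1, -0.033 to 0.11 for Pax2, -0.13 to 0.073 for Pax3, -0.10 to -0.02 for Pax4, -0.37 to -0.12 for Pax5, -0.24 to -0.03 for Pax6, 0.10 to 0.23 for Pax7, -0.12 to -0.04 for Pax8 and 0.12 to 0.41 for Pax9; within them Pax1 was 0.028 and Pax3 0.073 without replicate 2, and Pax1 0.072 and Pax2 -0.033 without replicate 3. Pax1 also turned to 0.047 with quantile normalization and to 0.0057 with the background level subtracted (with and without the block, an alternative added after seeing the data). With array weights, a fit that stopped before full convergence, Pax2 was -0.12, Pax6 0.17, Pax7 0.38 (against 0.16) and Pax9 0.14 (against 0.26); the cause was not tested.

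Over all genes limma called 0 without a block and 0 with any 1 array left out, 17 with the replicate block, 19 with a block that sets replicates 1 and 2 against replicate 3, 19 with the background level subtracted and the block, 42 with the block among genes above background on at least 3 arrays (also added later) and 6 with array weights. With the block and without 1 replicate it called 2 to 98. The number of Pax genes above background on all arrays was 5, or 5 to 6 without 1 array; it was 7 at the 90th percentile, 4 with olfactory receptors only, 5 with vomeronasal receptors only, 0 at the 99th percentile and 0 against taste receptor and keratin-associated genes (89 genes, level up to 6.81). A count of Pax genes above background thus depends on the genes and percentile that set it.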

Other observations

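A further 2 probe sets name a Pax gene together with a neighbour and were left out of the comparisons. The probe set shared by Pax1 and an uncharacterised gene gave 7.39, 7.52 and 5.25 in KO replicates 1, 2 and 3, against 7.14, 7.04 and 5.12 in WT replicates 1, 2 and 3. It was above background on all 6 arrays and higher in KO cells in every pair, which the Pax1 probe set was not. The probe set shared by Pax6 and Elp4, a subunit of the Elongator complex, gave 4.41, 4.72 and 6.64 in KO cells, against 4.45, 4.51 and 6.57 in WT cells. It was above background only on replicate 3 of both genotypes, where the Pax6 probe set was lower. Which gene either probe set reads was not tested.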
